A study of Mus musculus with 14 samples.

Results

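The genes described here are 35 mouse genes of glycolysis and of the transcriptional response to low oxygen. They were listed by symbol under a rule that uses no measured value, but with earlier results of these data known. Of these, 32 had a probe set annotated to their symbol alone, out of 19752 genes that did, and each gene was read from the brightest such probe set. They are 12 glycolytic enzymes and 20 other hypoxia response genes. Gapdh, Gpi1 and Eno1 had no probe set of their own and were not analysed here, and Ero1l was found under its current RefSeq symbol, Ero1a. A filter on the mean log2 intensity over all arrays kept 31 of the 32 for testing, P4ha2 being the gene below it, among 11761 genes tested in all.

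CD4+ T cells came from spleens of 6-week-old male C57BL/6 mice and were taken by negative selection, which removes the other cells. Beads carrying antibodies to CD3 and CD28 activated them for 48 h, and interferon alpha at 100 U/ml was then added to every culture together with 1 of 7 inhibitors of Janus kinases (JAKs), each at its own IC80, for 8 h or 2 h. In the sample titles IFN stands before the code of the inhibitor, and a separate label gives its target: JAK1 for IFN.3404, JAK1/2 for IFN.6221, PAN for IFN.6222, TYK2 for IFN.2485, JAK2 for IFN.3885, and JAK3 for both IFN.6226 and IFN.6228. The inhibitors are called by their target and the JAK3 pair by its codes. RNA was hybridised to Affymetrix Mouse Gene 1.0 ST arrays, 1 per inhibitor and time, so there were 7 arrays at 8 h and 7 at 2 h, 14 in all, and no repeated culture. Activation for 48 h and the dose of interferon alpha were common to both times, and no arrays without an inhibitor were analysed here. The time in interferon alpha differed between the 8 h and the 2 h arrays along with the time in inhibitor. The time since the beads were added differed with them. These durations changed together, so their separate parts in the difference between the times were not tested.

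Glycolysis splits glucose into pyruvate, and lactate dehydrogenase turns that pyruvate into lactate, which monocarboxylate transporters carry out of the cell. T cells that divide after activation are known for running this pathway at a high rate even when oxygen is present, with HIF1 alpha, MYC and mTOR among the known regulators. HIF alpha subunits are hydroxylated by the prolyl hydroxylases of the Egln family when oxygen is available and are then degraded; when they escape this they pair with Arnt and bind promoters and enhancers that hold the core letters ACGTG or GCGTG, among them those of many glycolytic genes and of Egln3 itself.

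All values are log2 of the deposited array intensity, and a difference of 1 is a doubling. Levels of different probe sets were not compared. Median intensities per array lay between 109 and 121. Among the 8 h arrays, that of the JAK1 inhibitor was least like the rest: its mean Pearson r with them across genes was 0.978 (0.988 to 0.992 for the others), and its upper quartile of intensity was 398, against 427 to 497. Genes of skeletal muscle averaged 6.99 in that array, 7.07 in the JAK1/2 array at 8 h and 7.07 in the JAK1/2 array at 2 h, against 6.30 to 6.59 in the other arrays. T cell markers (7 genes, among them Cd3e and Cd4) averaged 12.00 to 12.10 at 8 h and 11.64 to 11.79 at 2 h.

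The first comparison asked how the genes differed between the times. At 8 h, 23 of the 31 tested genes were lower than at 2 h, 1 was higher and 7 did not pass the test, where 28.2% of all genes tested were lower and 21.4% higher, 49.6% in all (limma, additive fit of inhibitor and time, Benjamini-Hochberg adjusted p under 0.05). The median difference (8 h minus 2 h) was -0.38 for these genes and 0.015 for all genes. The falls were spread over both subsets: 11 of 12 glycolytic enzymes fell (median -0.39), and among the 19 other hypoxia response genes 12 fell and 1 rose (median -0.32). For 19 of the 31 every 8 h array lay below every 2 h array, which held for 15.6% of all genes, and for 0 every 8 h array lay above (8.92% of all genes). In all 22 were lower at 8 h with each of the 7 inhibitors, a count that was not made over all genes and so has no share beside it. By at least 1 on the log2 scale 5 were lower (1.33% of all genes). No array was repeated, so these p-values rest on how unevenly the 7 inhibitors changed between the times plus noise, and fewer cells with a transcript cannot be told apart from less of it per cell.

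**Figure D1:**
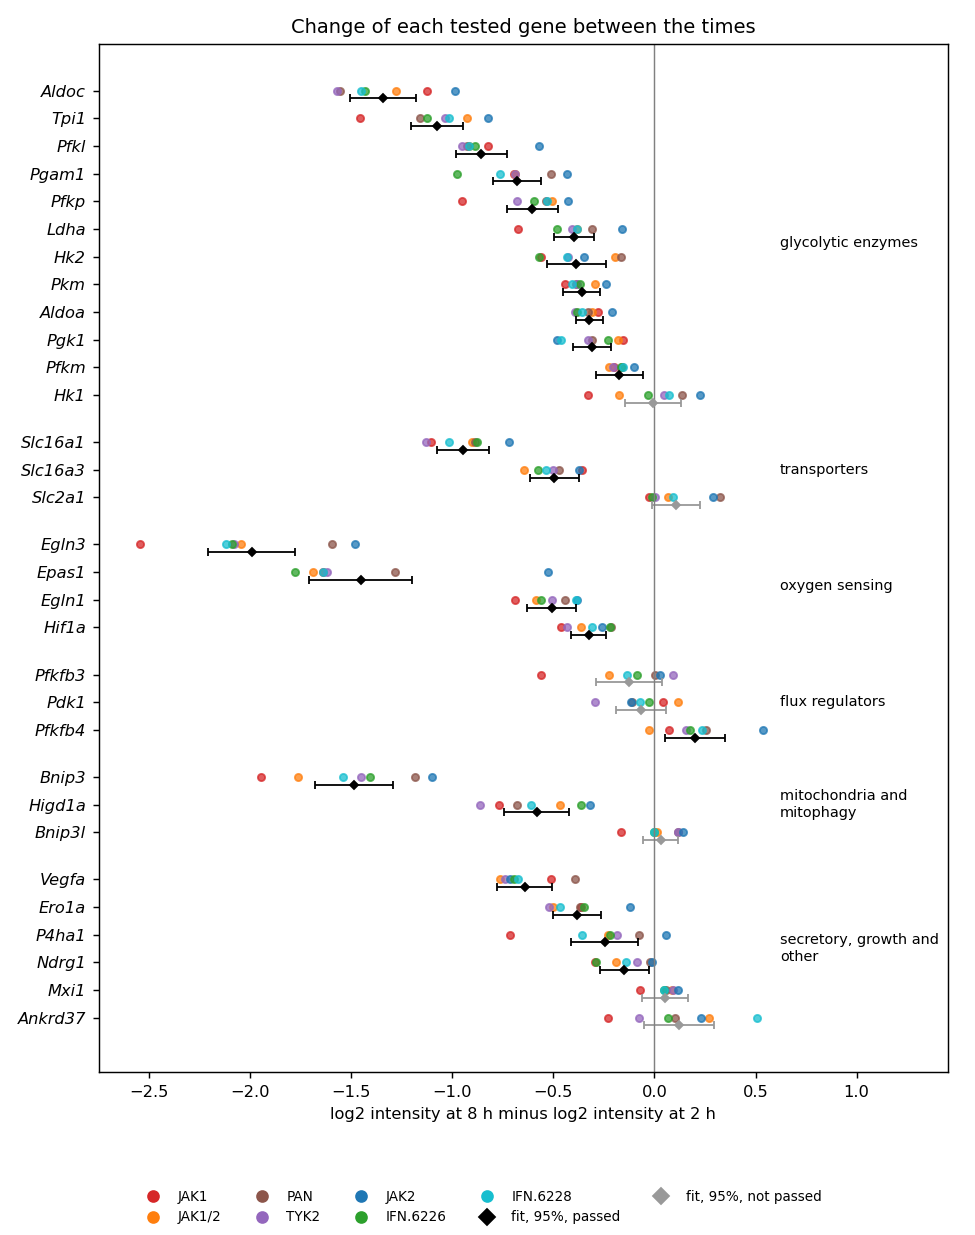
Each row is a tested gene, grouped by role, and the horizontal axis is its log2 intensity at 8 h minus that at 2 h. Coloured points are the 7 inhibitors, and diamonds just below them are the fitted difference with its 95% interval, black where the adjusted p passed. The points of Egln3 lie between -2.54 and -1.48, whereas those of Slc2a1 lie between -0.03 and 0.33.

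The upper part of glycolysis, in which glucose is phosphorylated and the sugar is split, held the largest fall among the enzymes. Aldoc, an aldolase that cleaves fructose bisphosphate, was at 7.39 to 7.95 (median 7.68) at 8 h and at 8.51 to 9.20 (median 9.13) at 2 h. Its groups did not overlap, and the fit gave -1.34 (SE 0.08, limma adjusted p = 6.71e-09), a 2.54-fold lower intensity at 8 h. Aldoa, the aldolase of most tissues, was at 12.60 to 12.75 at 8 h and at 12.96 to 13.02 at 2 h, again without overlap, with a difference of -0.32 (SE 0.03, adjusted p = 1.13e-06).

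Tpi1, which interconverts the products of that cleavage, was at 10.61 to 11.35 (median 11.12) at 8 h and at 12.06 to 12.25 (median 12.15) at 2 h. The lowest 8 h value was that of the JAK1 inhibitor, and every 8 h array lay below every 2 h array. The fitted difference was -1.08 (SE 0.06, limma adjusted p = 6.55e-09), or 2.11-fold.

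The phosphofructokinase subunits, which form the enzyme of the committed step, all fell, by unequal amounts. Pfkl was at 8.36 to 8.72 (median 8.50) at 8 h and at 9.18 to 9.56 (median 9.39) at 2 h, with a difference of -0.86 (SE 0.06, limma adjusted p = 4.71e-08). Pfkp fell by 0.60 (SE 0.06), and Pfkm, the muscle-type subunit, fell by 0.17 (SE 0.05, adjusted p = 0.0147). Pfkl and Pfkp showed no overlap between the times, and Pfkm did, its 8 h arrays spanning 7.85 to 8.22 and its 2 h arrays 8.05 to 8.37.

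The hexokinases, which phosphorylate glucose on entry, gave different results. Hk2, the inducible form, was at 6.43 to 7.17 (median 6.83) at 8 h and at 6.995 to 7.51 (median 7.24) at 2 h, lower at 8 h with all 7 inhibitors although the ranges overlapped, and its fitted difference was -0.39 (SE 0.07, limma adjusted p = 0.000285). Hk1, the constitutive form, did not pass. Its 8 h arrays spanned 9.57 to 10.17 and its 2 h arrays 9.84 to 10.03, and its difference was -0.01 with a 95% interval of -0.15 to 0.13.

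The 4 measured genes of the lower part of the pathway, from the phosphoglycerate step to lactate, all fell. Pgam1 (phosphoglycerate mutase) was at 11.02 to 11.56 at 8 h and at 11.85 to 12.09 at 2 h, a difference of -0.68 (SE 0.06). Ldha, which makes lactate, was at 12.74 to 13.26 at 8 h and at 13.35 to 13.46 at 2 h (-0.40, SE 0.05, limma adjusted p = 7.13e-06). Pkm, pyruvate kinase, fell by 0.36 (SE 0.04) and Pgk1, phosphoglycerate kinase, by 0.31 (SE 0.04). None of these 4 genes had an 8 h array as high as its lowest 2 h array. Second probe sets of Pgam1 and Pgk1 gave -0.71 and -0.30, with all 7 inhibitors lower at 8 h in each. Whether the brighter probe sets of Pgam1, Pgk1, Bnip3 and Higd1a read near-identical copies of these genes was not checked.

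Of the 3 transporters, the pair that moves lactate and pyruvate fell and the glucose transporter did not pass. Slc16a1 (MCT1) was at 8.54 to 8.98 (median 8.83) at 8 h and at 9.63 to 9.87 (median 9.72) at 2 h, with a difference of -0.95 (SE 0.06, limma adjusted p = 2.01e-08). Slc16a3 (MCT4), the lactate exporter of cells with high glycolysis, was at 8.40 to 8.75 at 8 h and at 8.76 to 9.17 at 2 h (-0.50, SE 0.06). The groups of both genes were separate. Slc2a1 (GLUT1), the main glucose carrier of activated T cells, was at 10.06 to 10.53 (median 10.21) at 8 h and at 10.001 to 10.24 (median 10.13) at 2 h. These ranges overlapped, the difference was 0.11 with a 95% interval of -0.01 to 0.22, and the limma adjusted p was 0.132. It passed as higher at 8 h after quantile normalization (0.16, adjusted p = 0.00420) and without the 3 arrays with higher muscle genes (0.14, adjusted p = 0.0459).

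All 4 oxygen sensing genes fell, with a median difference of -0.98. Egln3, a prolyl hydroxylase and itself a HIF target, had the largest difference of the 31 genes: it was at 7.75 to 8.67 (median 8.08) at 8 h and at 9.90 to 10.29 (median 10.16) at 2 h. The lowest 2 h array was more than 1 log2 unit above the highest 8 h array, and the fit gave -1.99 (SE 0.10, limma adjusted p = 2.94e-09), a 3.98-fold lower intensity. Egln1, the main hydroxylase of HIF1 alpha, was at 8.48 to 8.84 at 8 h and at 9.17 to 9.36 at 2 h, a difference of -0.51 (SE 0.06).

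Among the HIF subunits, Hif1a, the form most tied to glycolytic genes, was at 11.54 to 11.86 (median 11.71) at 8 h and at 11.93 to 12.12 (median 12.03) at 2 h, a difference of -0.32 (SE 0.04, limma adjusted p = 1.39e-05). Epas1, which encodes HIF2 alpha, was at 7.52 to 8.93 (median 7.92) at 8 h and at 9.16 to 9.73 (median 9.32) at 2 h. Neither gene's groups overlapped, but the 8 h array of the JAK2 inhibitor held Epas1 well above the other 8 h arrays. The fitted difference of Epas1 was -1.45 (SE 0.12, adjusted p = 2.50e-07), and its change was -0.53 with the JAK2 inhibitor and between -1.78 and -1.28 with the other 6. These are transcript levels, and the HIF proteins, which oxygen controls mainly through their stability, were not measured.

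**Figure D2:**
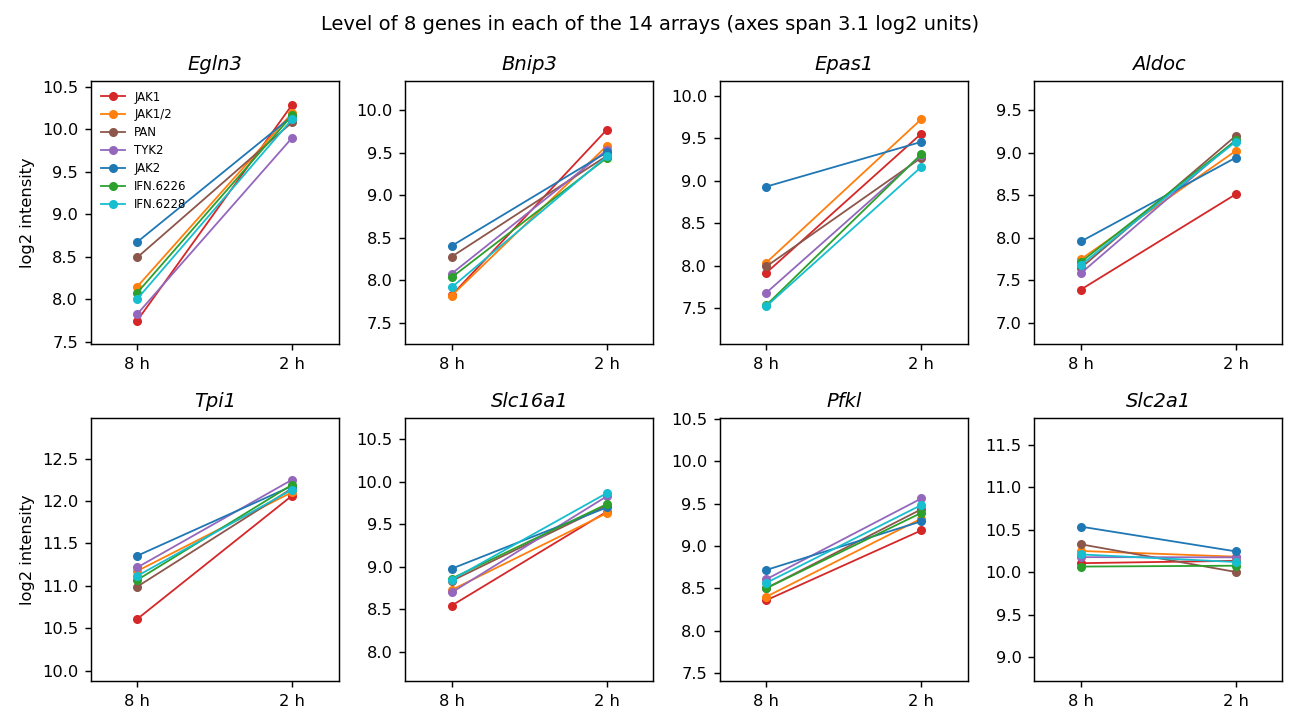
Each panel shows the log2 intensity of a gene in all 14 arrays, 8 h on the left and 2 h on the right, with a line joining the arrays of each inhibitor and vertical axes of equal span. All 7 lines rise from left to right for Egln3, Bnip3, Epas1, Aldoc, Tpi1, Slc16a1 and Pfkl, and those of Slc2a1 stay between 10.001 and 10.53.

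Of the 3 regulators of flux, 1 rose and 0 fell by limma, and 1 had an unadjusted p under 0.05 (6503 of all 11761 genes did). Pfkfb4, which makes and removes the fructose bisphosphate that activates phosphofructokinase, was the 1 gene that rose: it was at 6.95 to 7.41 (median 7.27) at 8 h and at 6.87 to 7.15 (median 7.07) at 2 h, with overlap, and higher at 8 h with 6 of 7 inhibitors. Its difference was 0.20 (SE 0.07, limma adjusted p = 0.0277), with an adjusted p of 0.0940 after median centring of the arrays. Pfkfb3, the paralogue with the stronger kinase activity, had a difference of -0.13 (95% interval -0.29 to 0.04), and Pdk1, the kinase that shuts pyruvate dehydrogenase, had -0.07 (95% interval -0.19 to 0.06); neither passed.

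Of the 3 mitochondrial genes, 2 fell. Bnip3, a mitophagy receptor and HIF target, was at 7.82 to 8.40 (median 8.03) at 8 h and at 9.44 to 9.77 (median 9.505) at 2 h, with a difference of -1.49 (SE 0.09, limma adjusted p = 1.31e-08, 2.80-fold), and its second probe set gave -0.97. Higd1a, a small protein of the respiratory chain, was at 5.77 to 6.52 at 8 h and at 6.54 to 7.05 at 2 h (-0.58, SE 0.07), and its dimmer second probe set gave -0.23. With the mean of its probe sets Higd1a was below the filter and was not tested. On the probe set used, its 8 h mean of 6.22 lay below the filter threshold of 6.29 and its 2 h mean of 6.80 above it. Higd1a was thus tested, and counted among the genes that fell, only through its 2 h arrays. The groups of Bnip3 and of Higd1a did not overlap. Bnip3l (NIX), the paralogue of Bnip3 that clears mitochondria from maturing red cells, was at 12.34 to 12.46 at 8 h and at 12.28 to 12.58 at 2 h. Its difference was 0.03 (95% interval -0.05 to 0.11), and 0.03 on its second probe set.

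Of the 6 tested genes of secretion, growth and other roles, 4 fell. Vegfa, the angiogenic growth factor, was at 7.32 to 7.61 (median 7.34) at 8 h and at 7.82 to 8.12 (median 8.06) at 2 h, without overlap (-0.64, SE 0.06, limma adjusted p = 1.46e-06). Ero1a, the oxidase that serves disulfide formation in the endoplasmic reticulum, fell by 0.38 (SE 0.06), also without overlap. P4ha1, a collagen prolyl hydroxylase subunit, fell by 0.25 (SE 0.08, adjusted p = 0.0171) and Ndrg1, a stress response gene, by 0.15 (SE 0.06, adjusted p = 0.0430), both with overlapping groups. The call of Ndrg1 was lost after quantile normalization (-0.07, adjusted p = 0.189), without a filter, without the inhibitor term and without the 8 h array of the JAK1 inhibitor (-0.12, adjusted p = 0.0726). The MYC antagonist Mxi1 (0.05) and the HIF target Ankrd37 (0.12) did not pass. P4ha2, too dim to be tested, was at 6.21 to 6.53 at 8 h and at 6.00 to 6.30 at 2 h.

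Markers of other cells moved between the times as well: all 5 measured B cell genes were higher at 8 h (their mean was 8.22 to 8.49 at 8 h and 7.88 to 8.05 at 2 h), as were all 7 T cell genes, 1 of 2 CD8 genes and 2 of 4 platelet genes (mean 6.80 to 7.86 at 8 h and 6.70 to 7.35 at 2 h). Of 14 tested skeletal muscle genes 2 were higher and 1 lower. Of 2 tested macrophage genes 1 was lower, and the tested dendritic, granulocyte, NK and erythroid genes did not pass. Their part in the result was not tested. Without the 8 h array of the JAK1 inhibitor 23 members passed, and without the 3 arrays with higher muscle genes 24 did. The shares of all genes in these runs are not given.

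Promoter letters are shown for the 6 called genes with the largest moderated t and, for comparison, for Ldha and Pgk1 (smaller falls) and Slc2a1 (no call in the fit reported), a choice made after their values were seen. RefSeq windows from 250 bases before to 50 after the transcript start (GRCm38.p6) were given for 29 of the 32 genes, 43 windows in all, and none for Bnip3l, Epas1 or Ndrg1. For each gene shown, the window with the most ACGTG and GCGTG matches was taken. From it the 80 bases before the start that held the most matches were printed. The stretches were thus chosen for these letters, and their presence there is no result. Each line is 80 bases, 5′ to 3′ along the strand of the gene, and capitals mark ACGTG or GCGTG on either strand (CACGT and CACGC are the same letters read on the other strand, and CACGTG, an E-box, holds ACGTG on both).
Egln3 (chr12:54204045-54204124, minus strand, 250 to 171 bases before the start): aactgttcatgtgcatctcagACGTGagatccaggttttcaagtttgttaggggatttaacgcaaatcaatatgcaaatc
Bnip3 (chr7:138909536-138909615, minus strand, 109 to 30 bases before the start): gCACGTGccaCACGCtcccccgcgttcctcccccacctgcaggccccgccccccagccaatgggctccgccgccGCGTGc
Slc16a1 (chr3:104638459-104638538, plus strand, 205 to 126 bases before the start): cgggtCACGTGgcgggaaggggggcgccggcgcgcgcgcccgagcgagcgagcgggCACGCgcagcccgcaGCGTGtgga
Aldoc (chr11:78322985-78323064, plus strand, 88 to 9 bases before the start): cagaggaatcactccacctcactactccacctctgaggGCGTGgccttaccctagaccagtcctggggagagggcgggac
Tpi1 (chr6:124814329-124814408, minus strand, 250 to 171 bases before the start): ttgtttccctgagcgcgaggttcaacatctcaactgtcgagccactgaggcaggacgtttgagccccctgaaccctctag
Pfkl (chr10:78009865-78009944, minus strand, 137 to 58 bases before the start): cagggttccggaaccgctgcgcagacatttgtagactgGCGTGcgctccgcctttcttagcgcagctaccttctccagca
Ldha (chr7:46845724-46845803, plus strand, 80 to 1 bases before the start): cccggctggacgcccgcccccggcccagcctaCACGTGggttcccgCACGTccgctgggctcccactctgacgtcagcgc
Pgk1 (chrX:106186922-106187001, plus strand, 178 to 99 bases before the start): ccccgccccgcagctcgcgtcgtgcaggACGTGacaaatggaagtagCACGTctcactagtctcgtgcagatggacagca
Slc2a1 (chr4:119108659-119108738, plus strand, 86 to 7 bases before the start): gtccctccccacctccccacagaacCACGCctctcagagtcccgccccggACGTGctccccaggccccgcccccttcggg

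ACGTG was in 65.1% of the 43 windows, against 25.3% of the windows of all genes tested and 19.6% of all promoter windows. GCGTG was in 53.5% of the windows, against 49.8% and 32.4%, and CACGTG, which overlaps ACGTG, in 6 of 43, against 9.92% and 7.15%. Egln3, Ldha and Pgk1 held ACGTG without GCGTG in the stretches printed, and those of Aldoc and Pfkl held GCGTG only. Outside those stretches, the window of Aldoc also held ACGTG and that of Ldha also held GCGTG. The whole window of Tpi1 held neither, so the stretch shown is its upstream end. Counted by gene, ACGTG was in 24 of the 29 (82.8%), against 29.0% of the 9423 tested genes with a window. Among the genes that fell, 18 of 21 with a window held ACGTG, and among the others 6 of 8 did. These others include P4ha2, which was not tested for time. GCGTG was in 13 of 21 (61.9%) and 7 of 8, beside 55.1% of the tested genes with a window. A match describes the letters of a window and is no measure of binding.

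Related lists give the surroundings of the time result, where 28.2% of all genes tested were lower at 8 h and 21.4% higher. Of 36 listed further genes of glycolysis and pyruvate use, 24 were tested: 13 fell and 3 rose (median -0.20). Gpd2, the mitochondrial glycerol phosphate dehydrogenase, averaged 7.81 ± 0.22 at 8 h and 8.97 ± 0.08 at 2 h (SD, n = 7 inhibitors each; -1.15), the carrier Slc2a6 fell by 0.63, and Pdk2, a pyruvate dehydrogenase kinase, rose by 0.79. Of 36 tested further HIF pathway and target genes, 13 fell and 10 rose (median -0.06), with Ak4, a mitochondrial adenylate kinase, at -1.96, Bhlhe40, a transcriptional repressor, at -1.77 and Fosl2, an AP-1 factor, at -1.39. The count in each direction was thus more even there than among the 31 genes, as it also was among all genes tested. That difference was not tested.

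In the pentose phosphate pathway 4 of 8 tested genes fell and 0 rose by limma at adjusted p under 0.05. The shares of all genes were 28.2% lower and 21.4% higher, here and for the lists that follow. The largest falls in the pathway were Prps1 at -0.82, Rpia at -0.57 and Pgd at -0.31. In a list of the tricarboxylic acid cycle and related enzymes 16 of 22 fell and 1 rose, with Suclg2 at -0.66 and Idh3a at -0.64. Acly, a related enzyme outside the cycle itself, was at -0.51. Of 13 tested upstream regulators of glycolysis 6 fell and 3 rose. Irf4, a factor of T cell activation, fell by 0.84, the mTOR activator Rheb fell by 0.57, and Mxd4, a MYC antagonist, rose by 0.69. Myc itself averaged 10.56 ± 0.17 at 8 h and 11.12 ± 0.17 at 2 h (SD, n = 7 each; -0.57).

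The size of the fall varied with the inhibitor. The median change of the 31 genes between the times was -0.51 with the JAK1 inhibitor, -0.37 with JAK1/2, -0.33 with PAN, -0.43 with TYK2, -0.26 with JAK2, -0.37 with IFN.6226 and -0.41 with IFN.6228, where the median over all genes was between -0.10 (JAK1) and 0.055 (JAK2). The inhibitors lay farther apart at 8 h. The median deviation of the 31 genes from the median of the 7 arrays ran from -0.23 (JAK1) to 0.18 (JAK2) at 8 h. At 2 h it ran from -0.05 (JAK1) to 0.06 (TYK2). Over all genes the median deviation ran from -0.12 (JAK1) to 0.099 (JAK2) at 8 h. At 2 h the values over all genes ran from -0.04 (JAK2) to 0.03 (IFN.6228). The wider spread at 8 h was thus shared by the genes at large. At 8 h the JAK1 inhibitor gave the lowest value of the 7 for 19 of the 31 genes (61.3%), as it did for 45.6% of all genes. The JAK2 inhibitor gave the highest value at 8 h for 22 (71.0%), as it did for 43.1% of all genes, so both arrays were also extreme over the genes at large.

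**Figure D3:**
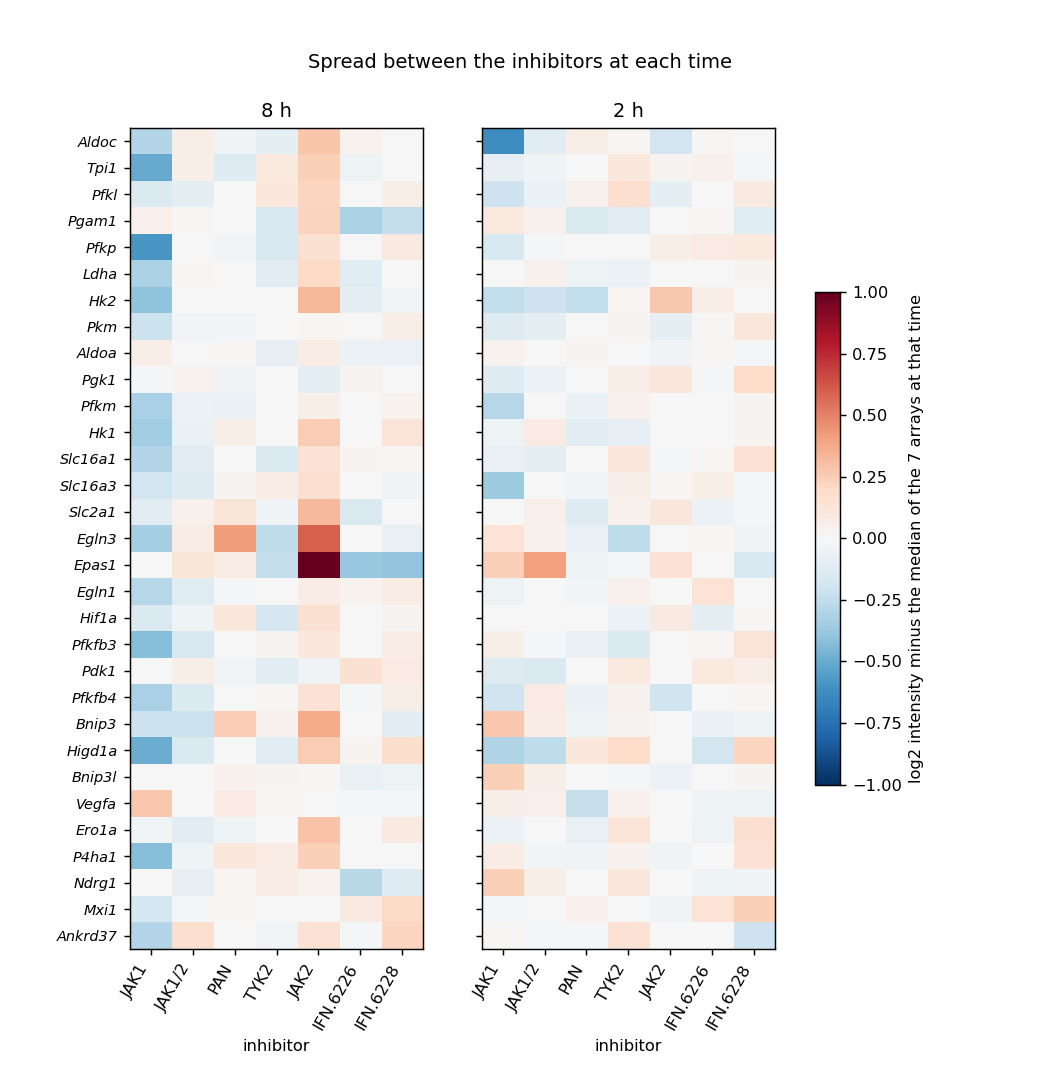
Rows are the 31 tested genes and columns the 7 inhibitors, at 8 h (left) and 2 h (right). Colour gives the log2 intensity minus the median of the 7 arrays at that time, red above and blue below it, on a scale that ends at 1. In the 8 h panel the JAK1 column is lowest for 19 genes and the JAK2 column highest for 22.

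The JAK1 inhibitor was set against the mean of the other 6 over both times. By limma, 6 of the 31 genes were lower with it and 0 higher, beside 6.81% lower and 0.961% higher (7.77% in all) among all genes. At an unadjusted p under 0.05 there were 14 of the 31, and 3063 of all 11761 genes. The median difference was -0.17 for the 31 genes and -0.05 for all genes. After quantile normalization 6 were lower and 1 (Ndrg1, 0.25) was higher, and the share of all genes in that run is not given.

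Aldoc was at 7.39 with the JAK1 inhibitor and 7.58 to 7.95 with the other 6 at 8 h, and at 8.51 with the JAK1 inhibitor and 8.94 to 9.20 with the others at 2 h. It was lowest with the JAK1 inhibitor at both times, and its difference was -0.46 (SE 0.11, limma adjusted p = 0.0224). Pfkp was at 9.57 with the JAK1 inhibitor and 9.998 to 10.31 with the others at 8 h, and at 10.52 and 10.66 to 10.78 at 2 h (-0.39, SE 0.08, adjusted p = 0.0140). It too was lowest at both times.

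Higd1a was at 5.77 with the JAK1 inhibitor and 6.12 to 6.52 with the other 6 at 8 h, and at 6.54 and 6.58 to 7.05 at 2 h (-0.42, SE 0.11, limma adjusted p = 0.0314), on the brighter of its probe sets. It was not tested with the mean of the probe sets or with the filter at the 60th percentile. Its 8 h mean of 6.22 lay below the filter threshold of 6.29. Tpi1 was at 10.61 with the JAK1 inhibitor and 10.99 to 11.35 with the others at 8 h, and at 12.06 and 12.10 to 12.25 at 2 h (-0.32, SE 0.09, adjusted p = 0.0365). Both gaps were wide at 8 h and narrow at 2 h. The lactate exporter Slc16a3 (-0.29, adjusted p = 0.0442) and the phosphofructokinase subunit Pfkm (-0.30, adjusted p = 0.0316) also passed, and Hk2 stood at the threshold (-0.33, adjusted p = 0.05001).

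These calls rested on few arrays. How many of all genes passed in the following runs is not given, so their counts cannot be read as particular to these genes. Without the 8 h array of the JAK1 inhibitor, which stood apart, 2 genes passed, Aldoc (-0.59, limma adjusted p = 0.0408) and Bnip3l, which was higher (0.24, adjusted p = 0.0329). Without the 2 h array instead 12 passed, all lower, and without the 3 arrays with higher muscle genes 3 passed (Aldoc and Slc16a3 lower, Bnip3l higher). Leaving out 1 other inhibitor at a time gave 7 (JAK1/2), 8 (JAK2), 3 (PAN), 3 (TYK2), 3 (IFN.6226) and 1 (IFN.6228).

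The JAK2 inhibitor against the other 6 gave the opposite sign, and 0 of the 31 genes passed by limma, where 0.0765% of all genes did, each of them higher. At an unadjusted p under 0.05 there were 7 of the 31 (547 of all 11761 genes), and robust moderation also gave 0 calls. The median difference was 0.11 for the 31 genes and 0.03 for all genes.

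Hk2 had the smallest p. It was at 7.17 with the JAK2 inhibitor and 6.43 to 6.84 with the other 6 at 8 h, and at 7.51 with the JAK2 inhibitor and 6.995 to 7.31 with the others at 2 h. It was highest with the JAK2 inhibitor at both times, with a difference of 0.40 (SE 0.10, 95% interval 0.19 to 0.60, limma adjusted p = 0.153), and 0.37 without the 8 h array of that inhibitor.

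Epas1 followed. It was at 8.93 with the JAK2 inhibitor and 7.52 to 8.04 with the other 6 at 8 h, but at 9.46, inside the range of 9.16 to 9.73 of the others, at 2 h. Its difference over both times was 0.61 (SE 0.17, limma adjusted p = 0.319), and 0.07 without the 8 h array, so it rested on that array. Without the 3 arrays with higher muscle genes it was 0.64 and the adjusted p 0.0429.

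**Figure D4:**
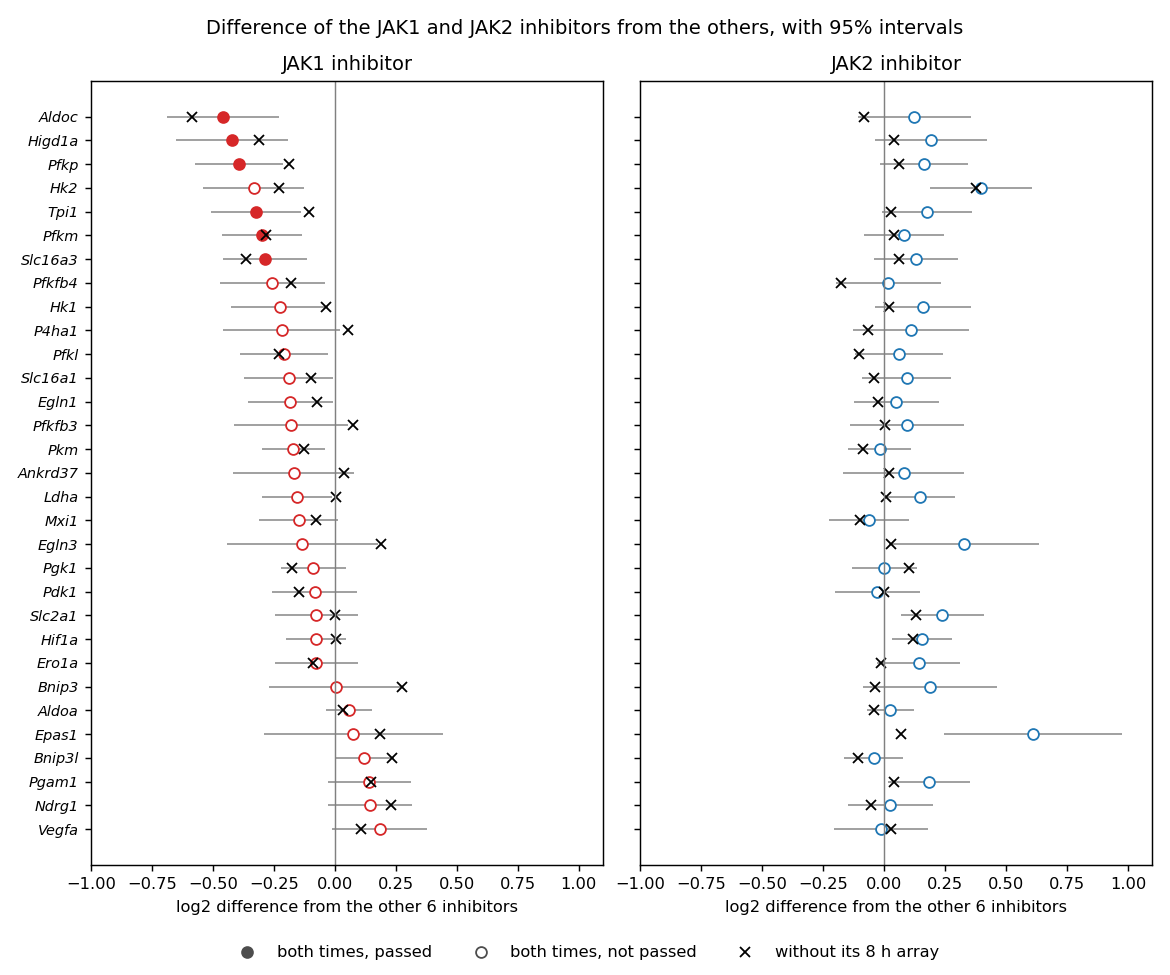
Each row is a gene, and circles give its log2 difference from the mean of the other 6 inhibitors over both times with the 95% interval, for the JAK1 inhibitor (left) and the JAK2 inhibitor (right). Filled circles passed the test, and crosses give the difference without the 8 h array of that inhibitor. On the left 6 circles are filled, and on the right none is, with Epas1 at 0.61 and its cross at 0.07.

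The other 5 inhibitors, each set against the rest, gave 0 calls among the 31 genes by limma, beside 0.0085% of all genes for JAK1/2 and 0% for PAN, TYK2, IFN.6226 and IFN.6228. The counts at an unadjusted p under 0.05 were 0 for JAK1/2, 0 for PAN, 2 for TYK2, 1 for IFN.6226 and 4 for IFN.6228. Over all 11761 genes they were 614, 38, 569, 375 and 811, in the same order. Robust moderation gave 0 calls among the 31 in each. The smallest p belonged to Higd1a with JAK1/2 (-0.19), Hif1a with PAN (0.08), Egln3 with TYK2 (-0.32, 95% interval -0.62 to -0.01), Ndrg1 with IFN.6226 (-0.18) and Mxi1 with IFN.6228 (0.21).

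The inhibitors IFN.6228 and IFN.6226 share the JAK3 label, and they were the 1 pair compared, each at its own IC80 and at the same times. Differences (IFN.6228 minus IFN.6226) ran from -0.08 to 0.27 over the 31 genes, and 0 passed by limma (0% of all genes). At an unadjusted p under 0.05 there were 0 as well, and 42 of all 11761 genes. Higd1a, the farthest apart, was at 6.44 with IFN.6228 and 6.29 with IFN.6226 at 8 h, and at 7.05 with IFN.6228 and 6.66 with IFN.6226 at 2 h. Its difference was 0.27 with a 95% interval of -0.03 to 0.57, and that of Ero1a was 0.15 (-0.07 to 0.38). For Epas1 the interval ran from -0.56 to 0.40, so differences of that size could not be seen.

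JAK1 and TYK2 serve the receptor of interferon alpha, whereas the interleukin 2 receptor and others that use the common gamma chain depend on JAK1 and JAK3. The 4 inhibitors whose label names JAK1 or TYK2 (PAN taken to include both) were therefore compared with the 3 that name JAK2 or JAK3 only. At 2 h, 0 of the 31 genes passed by limma (0.697% of all genes did) and 1 had an unadjusted p under 0.05 (484 of all 11761 did). This was Hk2, at 6.995, 7.03, 6.997 and 7.26 with JAK1, JAK1/2, PAN and TYK2, against 7.51, 7.31 and 7.24 with JAK2, IFN.6226 and IFN.6228. The groups overlapped by the TYK2 array alone, and the difference was -0.28 (95% interval -0.48 to -0.08, adjusted p = 0.567). Pgk1 came next at -0.12 (95% interval -0.25 to 0.001).

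At 8 h again 0 passed (0% of all genes), with 1 of the 31 at an unadjusted p under 0.05 (1834 of all 11761). The median difference was -0.14 for the 31 genes and -0.08 for all genes. Higd1a was at 5.77, 6.12, 6.26 and 6.16 with JAK1, JAK1/2, PAN and TYK2, against 6.52, 6.29 and 6.44 with JAK2, IFN.6226 and IFN.6228. These groups did not overlap, and the difference was -0.34 (95% interval -0.60 to -0.08, limma adjusted p = 0.307). Pfkp followed at -0.27. For the difference between the classes in the change from 2 h to 8 h, 0 of the 31 passed by limma (0.102% of all genes). At an unadjusted p under 0.05 there were 0 of the 31 and 1186 of all 11761. The smallest p were those of Higd1a (-0.26) and Pgk1 (0.15).

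The 5 inhibitors whose label names JAK1 or JAK3 were also compared with JAK2 and TYK2. At 2 h 0 of the 31 genes passed by limma (0.051% of all genes) and 1 had an unadjusted p under 0.05 (1048 of all 11761). That gene was Hk2, with a difference of -0.27 (95% interval -0.51 to -0.04). It was at 6.995, 7.03, 6.997, 7.31 and 7.24 with JAK1, JAK1/2, PAN, IFN.6226 and IFN.6228, against 7.51 and 7.26 with JAK2 and TYK2, and IFN.6226 reached into the range of the pair. Egln3 followed at 0.14. At 8 h 0 passed (0% of all genes) and 1 had an unadjusted p under 0.05 (81 of all 11761). That gene was Tpi1, at -0.29 (95% interval -0.58 to -0.004), with Hk2 next at -0.27. Robust moderation gave 0 calls in each of the class comparisons, and 7 arrays per time limit how small a difference could pass.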

How the data were processed

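RNA of CD4+ T cells was read on 14 arrays (7 inhibitors, 8 h and 2 h, 1 array each). The deposited table holds a linear intensity for every probe set on every array. It was made with RMA in Affymetrix Power Tools, per the submitters' processing notes, which give no version; which arrays were normalized together is not given in the sources used here. They were put on the log2 scale. Of 24922 probe sets 21425 carried 1 symbol, and genes whose brightest such probe set reached the 40th percentile of mean log2 intensity (6.29) were tested. Signal over background takes the place of depth, so the filter drops dim genes. Fits used R 4.3.3, limma 3.58.1 and statmod 1.5.0 (lmFit, eBayes with trend): inhibitor plus time (6 residual degrees of freedom) for times and single inhibitors, and 1 value per inhibitor for classes. P-values were adjusted by Benjamini-Hochberg over 11761 genes (threshold 0.05). The steps were tested on simulated data. Plots used Python 3.11.15, numpy 2.4.6, pandas 2.3.3 and matplotlib 3.10.9.

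The genes, lists and comparisons were chosen with earlier results of these data known. Values in every array are given for up to 6 called genes per direction with the largest moderated t for time, up to 4 per other comparison with the largest called difference (otherwise the 2 of smallest p), and up to 3 per related list; other members named by value, and Myc, were added to account for all members. Alternatives were other normalizations, filters, probe set rules, an offset, robust moderation, no inhibitor term and arrays or inhibitors left out. Fits without the JAK1 inhibitor's 8 h array, its 2 h array or the JAK2 inhibitor's 8 h array were chosen after seeing the data.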

Additional observations from a re-analysis of the deposited data

Results flagged for a closer look

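In each of 64 groups (32 genes at 2 times, 7 arrays each) the highest and the lowest array were set against the rest, and 12 arrays lay far from the other 6 by Dixon's criterion at its 95% critical value, where chance gives about 1 in 20 groups. How many of all genes had an array this far from the rest was not counted, so no share stands beside the 12. All genes at a time were read on the same 7 arrays, so the groups were not independent. At 8 h the array of the JAK1 inhibitor was also the lowest for 45.6% of all genes. The JAK1 inhibitor supplied 10 of the 12. At 8 h it was lowest for Pfkp (9.57, the next array at 9.998), Pfkm (7.85, next 8.10), Pkm (10.43, next 10.61) and P4ha1 (8.47, next 8.85), and highest for Vegfa (7.61, next 7.43). At 2 h it was lowest for Aldoc (8.51, next 8.94), Pfkm (8.05, next 8.26) and Slc16a3 (8.76, next 9.08), and highest for the mitophagy receptors Bnip3 (9.77, next 9.58) and Bnip3l (12.58, next 12.40).

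The JAK2 inhibitor was highest for Epas1 at 8 h, at 8.93 with the next array at 8.04. The PAN inhibitor was lowest for Vegfa at 2 h, at 7.82 with the next array at 8.01.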

How the results depend on the processing

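Of 207 alternative counts of members passed, 199 were within 1.5 times the reported count. Most of the 207 belonged to comparisons with a reported count of 0, where another 0 was counted as within. The figure therefore says little about the calls that were made. Shares over all genes are not given for these alternative counts. For 8 h against 2 h, 21 to 24 members passed in every alternative run: 23 with no replicate block (no inhibitor term to pair the times), 21 to 23 with an inhibitor left out, where Ndrg1, Pfkfb4 and P4ha1 were lost. Ndrg1 was also lost after quantile normalization, without a filter, without the inhibitor term and without the arrays with higher muscle genes, Pfkfb4 after median centring, and Higd1a fell below the filter with the mean of the probe sets; Slc2a1 was gained after quantile normalization and without the muscle arrays. For the JAK1 inhibitor, 6 as reported became 3 without the 3 arrays with higher muscle genes, 2 without its 8 h array, 12 without its 2 h array and 1 to 8 with another inhibitor left out; the cause was not tested. For JAK2, 0 became 1 (Epas1) without the arrays with higher muscle genes. Of 514 single gene results under alternatives, 494 kept their side of the threshold, 19 lost it and 1 gained it. Where either fit passed, 0 changed sign. Changes of sign between results that did not pass were not counted. Dim genes, P4ha2 among them, are limited by signal over background.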
